A study of Mus musculus with 6 samples.

Results

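YAP (gene Yap1) and TAZ (gene Wwtr1) and 8 of their target genes were followed in RNA sequencing of the mouse melanoma cell line D4M-3A. The 10 genes were taken by name, with earlier results of these data known: Yap1, Wwtr1, Ccn1, Ccn2, Ankrd1, Amotl2, Lats2, Crim1, Fjx1 and Axl. All 10 were among the 43043 genes listed and among the 14419 that had enough reads to be tested. The series compared 3 Ctrl samples, from cells transduced by lentivirus with an empty CRISPR-Cas9 construct, with 3 Nfkbiz KO samples, from cells that received a construct against Nfkbiz, the gene of the atypical IκB protein IκBζ. Both groups were grown in RPMI-1640 medium with 10% FCS, and each group was described as 3 independent experiments. The sources used here do not say whether the Nfkbiz KO cells were a clone or a pool.

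Samples held 32219900 to 44927203 gene reads, of which 96.5% to 96.9% mapped uniquely. Nfkbiz itself had 69.2 ± 5.87 TPM (a transcript level scaled for length and depth; SD, n = 3) in Ctrl, against 34.9 ± 0.245 TPM in the Nfkbiz KO samples (n = 3). These reads count edited and unedited transcripts alike. Of 7 melanocyte lineage markers, Sox10 and Tyr had 0 reads in all 6 samples, Tyrp1, Dct and Mlana had at most 3 reads in any sample, and Mitf and Pmel were detected at 60 to 115 and 18 to 34 reads. The defining markers of the melanocyte lineage were therefore absent or low in both groups, with a summed level of 1.11 to 1.74 TPM in Ctrl and 1.27 to 1.68 TPM in Nfkbiz KO. Of 9 markers of other cell types, 4 had enough reads to be tested. Cdh5, an endothelial cadherin, was higher in Nfkbiz KO at 18 to 83 reads, while Pecam1, the other endothelial marker, did not pass at 0 to 19 reads (log2 fold change -0.16, adjusted p = 0.88 from edgeR). Dcn, the fibroblast proteoglycan decorin, was lower. The log2 fold changes of Cdh5 and Dcn were 1.34 and -0.79. The fibroblast receptor gene Pdgfra was at 36.7 ± 3.83 and 39.5 ± 0.992 TPM, and Ptprc, Krt5, Krt14, Epcam and Lum had at most 6 reads. The summed level of these 9 markers was 49.2 to 57.6 TPM in Ctrl and 49.1 to 51.9 TPM in Nfkbiz KO, and their part in the results below was not tested. In bulk RNA, fewer cells that express a gene and less RNA per cell cannot be told apart.

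YAP and TAZ are the transcriptional co-activators at the end of the Hippo pathway. The kinases MST1 and MST2 activate LATS1 and LATS2, which phosphorylate YAP and TAZ and keep them in the cytoplasm. Unphosphorylated YAP and TAZ enter the nucleus, bind TEAD factors on DNA and switch on genes for matricellular proteins, cytoskeletal proteins and growth factor signalling, and also Lats2 and Amotl2, whose products restrain YAP. In melanoma, high levels of the target gene Axl are known from dedifferentiated, invasive cells. RNA levels do not show where the YAP and TAZ proteins are or whether they are phosphorylated.

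The core motif that TEAD factors bind, GGAATG, was searched on both strands in the 300 bases around each annotated start (250 before and 50 after it; RefSeq promoter windows, build GRCm38.p6). Ccn2 and Fjx1 had no window in this set, so their promoters were not searched. Each of the 8 genes searched held at least 1 match, in 9 of their 10 windows, against 14.7% of all 32851 windows. A match is a string of letters and not a measured binding site. The 8 genes searched are Yap1, Wwtr1 and the target genes other than Ccn2 and Fjx1. The stretches around the matches are shown because each of these genes held the motif. Capitals mark the motif, read as GGAATG on the strand of the gene or as its reverse complement, CATTCC, where it lies on the opposite strand. Each stretch is written 5′ to 3′ on the strand of its gene, and the Ankrd1 stretch holds 2 matches.
Yap1, chr9:8004705-8004764, minus strand: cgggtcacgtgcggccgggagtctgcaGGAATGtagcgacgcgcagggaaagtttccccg
Wwtr1, chr3:57576014-57576073, minus strand: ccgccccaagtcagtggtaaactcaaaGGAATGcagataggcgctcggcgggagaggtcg
Ccn1, chr3:145650056-145650115, minus strand: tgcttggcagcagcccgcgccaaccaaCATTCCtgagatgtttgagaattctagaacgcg
Crim1, chr17:78200142-78200201, plus strand: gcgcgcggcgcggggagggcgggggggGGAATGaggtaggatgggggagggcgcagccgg
Axl, chr7:25788934-25788983, minus strand: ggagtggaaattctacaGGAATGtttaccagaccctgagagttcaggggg
Ankrd1, chr19:36119935-36120081, minus strand: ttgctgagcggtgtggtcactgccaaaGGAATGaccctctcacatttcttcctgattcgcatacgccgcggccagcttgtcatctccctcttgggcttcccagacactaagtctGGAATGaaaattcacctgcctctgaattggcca
Amotl2, chr9:102717712-102717771, plus strand: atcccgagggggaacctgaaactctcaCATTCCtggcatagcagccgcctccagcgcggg
Lats2, chr14:57746102-57746131, minus strand: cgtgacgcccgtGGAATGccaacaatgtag

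In 7 of the 8 genes the match lay upstream of the start. It began 65 bases before the start in Amotl2, 79 in Crim1, 103 in Ccn1, 141 in Yap1 and 233 in Axl. Ankrd1 had matches at 210 and 123 bases before its start, and Wwtr1, which has 2 annotated windows, at 136 bases in the first and 170 in the second. Whether the 2 windows of Wwtr1 overlap and hold the same match was not examined. In Lats2 the match began 4 bases inside the transcript of 1 of its 2 windows. The AP-1 motif, TGANTCA, was found in 0 of the 8 genes and in 7.81% of all windows, and the NF-κB motif in both windows of Lats2 and in 8.46% of all windows. With a match in every one of the 8, there was no gene without the TEAD motif to compare them with.

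**Figure D1:**
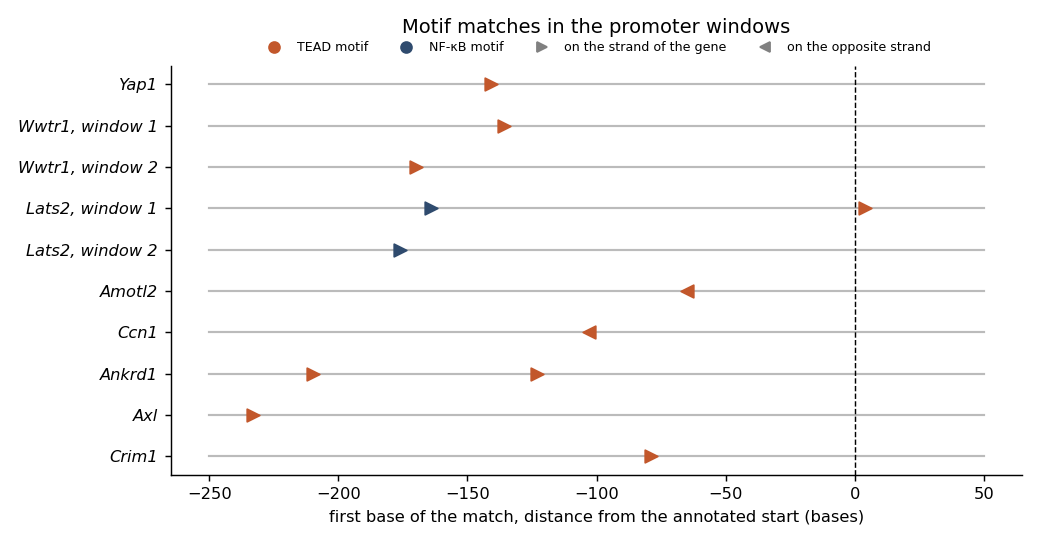
Position of motif matches in the promoter windows of the 8 genes searched, with the distance from the annotated start in bases on the x axis and a row for each gene or window. Orange arrowheads are TEAD motifs and blue arrowheads NF-κB motifs, pointing right on the strand of the gene. Every gene shown has a TEAD motif, from 233 bases before the start in Axl to 4 bases inside the transcript in Lats2.

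The 10 genes did not move in 1 direction in Nfkbiz KO. Wwtr1, Lats2 and Fjx1 rose, whereas Ccn1, Ccn2, Ankrd1 and Amotl2 fell, and Yap1, Axl and Crim1 did not pass the test. A gene was called changed at an adjusted p of 0.05 or less from edgeR's quasi-likelihood test on read counts, with Benjamini-Hochberg adjustment over all 14419 genes. By this rule 7 of the 10 changed, 3 upwards and 4 downwards. Over all genes tested the share was 36.6%, with 18.2% higher and 18.4% lower in Nfkbiz KO. The median log2 fold change of the 10 genes was -0.039, beside -0.015 over all genes tested. The normalised counts of the groups did not overlap in 8 of the 10 genes, as in 48.4% of all genes tested.

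When more than a 2-fold change and group means more than 4 TPM apart were also required, 2 genes were called, Ankrd1 downwards and Fjx1 upwards. Of all genes tested 1.79% met these cut-offs. The other 5 changes were smaller, with log2 fold changes between -0.59 and 0.36. All 7 changed genes passed in each of 15 alternative analyses.

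**Figure D2:**
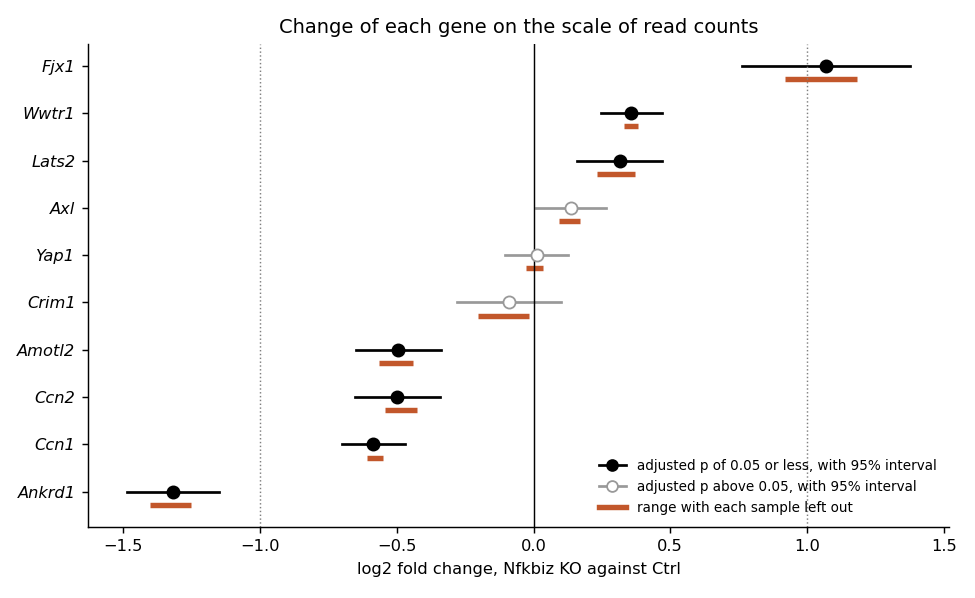
Log2 fold change of the 10 genes between Nfkbiz KO and Ctrl, on the scale of read counts. Points are estimates, thin lines their 95% intervals and orange bars the range of estimates with each of the 6 samples left out in turn; filled points have an adjusted p of 0.05 or less and dotted lines mark a fold change of 2. Values run from -1.32 for Ankrd1 to 1.07 for Fjx1, and the intervals of Yap1 and Crim1 include 0.

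The levels of the 10 genes spanned a wide range. In Ctrl, Axl was the most abundant, with 768 ± 72.2 TPM, followed by Ccn1 with 438 ± 26.8 and Wwtr1 with 138 ± 9.76 TPM (SD, n = 3). Ccn2, Amotl2, Ankrd1, Yap1, Crim1 and Lats2 followed between 98.7 and 24.3 TPM, and Fjx1 was lowest with 5.42 ± 0.883 TPM. Ranges of neighbours in this order overlapped between Ccn2 and Amotl2 and between Amotl2 and Ankrd1, and in no other pair. In Nfkbiz KO, Ankrd1 was no longer above Yap1 and lay below Crim1, in the range of Lats2. Ctrl replicate 3 had the lowest TPM of the 3 Ctrl samples in 8 of the 10 genes. In Ankrd1 and Fjx1 the lowest were replicates 1 and 2.

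**Figure D3:**
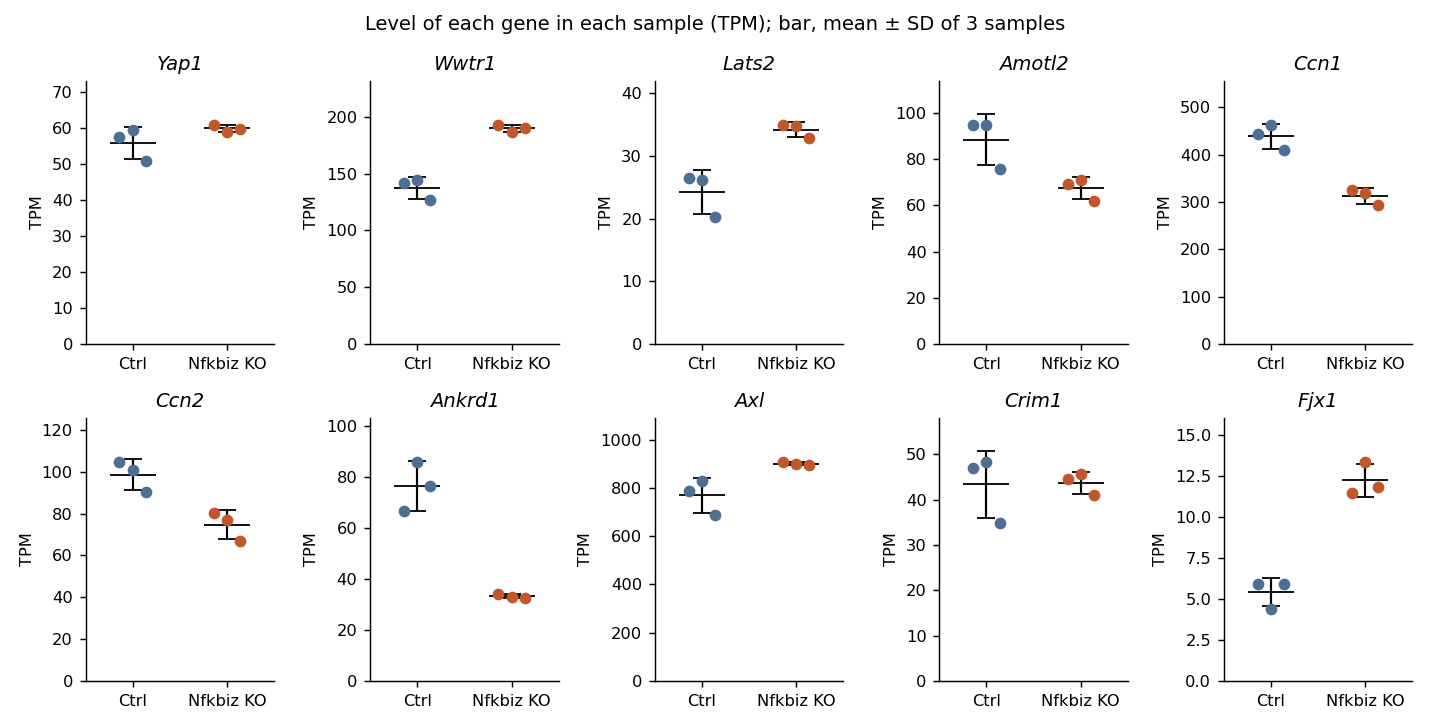
Level of each gene in each sample in TPM, on linear axes that start at 0, with Ctrl samples in blue and Nfkbiz KO samples in orange, and replicates 1 to 3 from left to right. Black bars give the mean and SD of 3 samples. The groups are separate in all panels but those of Yap1 and Crim1, and Ankrd1 falls from 76.3 to 33.2 TPM.

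The co-activators themselves parted, as TAZ RNA was higher in Nfkbiz KO and no difference was detected for YAP RNA. Yap1 (chromosome 9, 7932000 to 8004661, minus strand; GRCm39) had 57.6, 59.4 and 50.9 TPM in Ctrl replicates 1, 2 and 3 and 60.9, 59.1 and 59.8 TPM in Nfkbiz KO replicates 1, 2 and 3. Apart from the low value of Ctrl replicate 3, the samples of both groups shared a narrow range, and the groups overlapped. For Yap1 the log2 fold change was 0.011 (SE 0.053, 95% interval -0.10 to 0.13, adjusted p = 0.9 from edgeR), at 5419 to 7534 reads per sample. Without Ctrl replicate 3 its sign turned, to -0.027.

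Wwtr1 (chromosome 3, 57363067 to 57483331, minus strand) had 142.0, 144 and 126 TPM in Ctrl and 193, 187 and 190.1 TPM in Nfkbiz KO. Every Nfkbiz KO sample lay above every Ctrl sample, by far more than the spread within either group. Its log2 fold change was 0.36 (SE 0.052, adjusted p = 0.00017 from edgeR), from 7341 to 11976 reads. Leaving out any 1 sample gave 0.33 to 0.38.

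Set against each other within a sample, TAZ transcripts outnumbered YAP transcripts in both groups. The ratio of Wwtr1 to Yap1 in TPM was 2.47, 2.43 and 2.48 in the Ctrl samples and 3.16, 3.16 and 3.18 in the Nfkbiz KO samples. The spread within each group was small beside the gap between them, and Ctrl replicate 3 did not stand apart on this ratio. On the log2 scale, the ratio of Yap1 to Wwtr1 was -1.30 ± 0.016 in Ctrl and -1.66 ± 0.0051 in Nfkbiz KO, a difference of -0.36 (exact permutation test, two-sided, p = 0.1, which is the smallest p for 3 samples against 3). Wwtr1 made up 71.1% ± 0.224 of the summed Yap1 and Wwtr1 level in Ctrl and 76.0% ± 0.065 in Nfkbiz KO. That sum was 194 ± 14.2 TPM in the Ctrl samples and 249.7 ± 4.05 TPM in the Nfkbiz KO samples, without overlap between the groups.

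The TEAD factors, through which YAP and TAZ reach DNA, changed in both directions. Tead2, the most abundant in Ctrl, fell from 82.5 ± 1.65 to 57.1 ± 3.18 TPM (log2 fold change -0.62), and Tead3 fell from 8.83 ± 1.0 to 6.01 ± 0.351 TPM (-0.67). Tead4 rose from 16.7 ± 2.19 to 21.3 ± 0.684 TPM, at a log2 fold change of 0.18 (adjusted p = 0.022 from edgeR), and lost its call without Nfkbiz KO replicate 2 (adjusted p = 0.088) and without replicate 3 (adjusted p = 0.1). Tead1 had 58.6 ± 9.69 and 72.6 ± 1.60 TPM and did not pass (log2 fold change 0.17, 95% interval 0.0085 to 0.34, adjusted p = 0.095 from edgeR), but did without Ctrl replicate 2, at 0.26 (adjusted p = 0.012). Without Ctrl replicate 3 it was at 0.079 (adjusted p = 0.16). The summed TEAD level overlapped between the groups, with 151 to 179 TPM in Ctrl and 151 to 162 TPM in Nfkbiz KO. Its composition did not overlap, as Tead2 held 47.1% to 53.5% of the sum in Ctrl and 35.6% to 37.3% in Nfkbiz KO, and Tead1 held 32% to 38.0% and 45.5% to 46.7%. Of the TEAD-binding VGLL cofactors, Vgll1 and Vgll2 had 0 reads in all samples, and Vgll3 and Vgll4 did not pass the test.

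**Figure D4:**
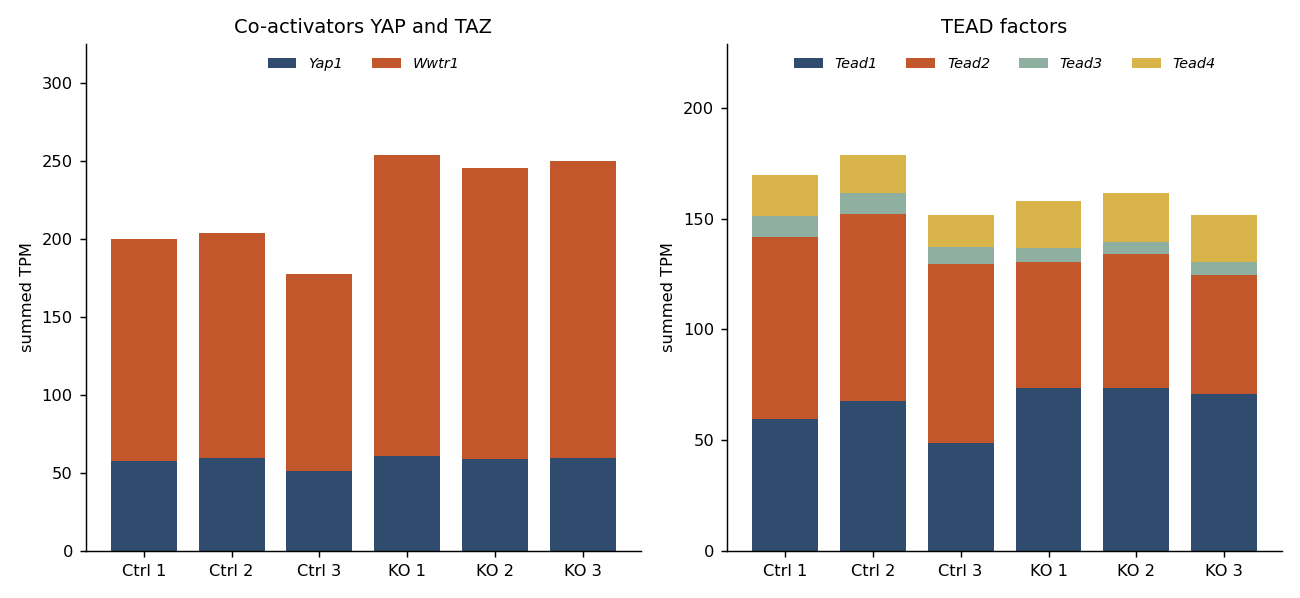
Summed levels in TPM of Yap1 and Wwtr1 (left) and of the 4 TEAD genes (right) in each sample, as stacked bars from 0, with KO for Nfkbiz KO. The Wwtr1 segment is taller in the 3 Nfkbiz KO samples, while the TEAD bars of the groups overlap in height and have a shorter Tead2 segment in Nfkbiz KO.

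Lats2 and Amotl2, target genes whose products restrain YAP and TAZ, moved apart. Lats2, the kinase that phosphorylates both co-activators, lies on chromosome 14 (57926960 to 57995845, minus strand). It had 26.4, 26.2 and 20.3 TPM in Ctrl and 35.0, 34.7 and 32.8 TPM in Nfkbiz KO. All Nfkbiz KO samples were higher than all Ctrl samples, and Ctrl replicate 3 was the lowest. Lats2 had a log2 fold change of 0.32 (SE 0.072, adjusted p = 0.0043 from edgeR), which dropped to 0.23 without Ctrl replicate 3. On the TPM scale the estimate for Lats2 was larger, at 0.48 (limma on log2(TPM + 1), adjusted p = 0.024). Only 46.3% of the reads of Lats2 mapped uniquely, and with unique reads alone the log2 fold change was 0.32 (adjusted p = 0.00066). A gene model on the same strand, Gm49361, overlaps Lats2 and held 33 to 65 reads. The related kinase Lats1 was also higher in Nfkbiz KO, with 37.1 ± 5.67 and 53.6 ± 1.70 TPM and a log2 fold change of 0.43. The ratio of Lats2 to Lats1 in TPM was 0.657 ± 0.0608 in Ctrl and 0.638 ± 0.0354 in Nfkbiz KO, and the groups overlapped.

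Amotl2 (chromosome 9, 102593836 to 102610617, plus strand) encodes a scaffold of the angiomotin family, which binds YAP at cell junctions. It had 94.5, 94.7 and 75.7 TPM in Ctrl and 69.2, 70.8 and 62.0 TPM in Nfkbiz KO. The groups did not overlap, although Ctrl replicate 3 came close to the Nfkbiz KO samples. Its log2 fold change was -0.49 (SE 0.071, adjusted p = 0.00017 from edgeR). The other family members went in opposite directions, as Amot fell from 17.7 ± 2.87 to 14.1 ± 0.291 TPM (log2 fold change -0.42) and Amotl1 rose from 52.9 ± 4.03 to 68.2 ± 2.37 TPM (0.26). On the TPM scale the call of Amot was lost (limma on log2(TPM + 1), adjusted p = 0.12).

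Ccn1 and Ccn2, the genes of the secreted matricellular proteins CYR61 and CTGF and widely used readouts of YAP and TAZ, both fell. Ccn1 (chromosome 3, 145352720 to 145355738, minus strand) had 443, 463 and 409.5 TPM in Ctrl and 326, 318 and 294 TPM in Nfkbiz KO. The lowest Ctrl sample stayed well above the highest Nfkbiz KO sample. Its log2 fold change was -0.59 (SE 0.053, adjusted p = 3.2e-06 from edgeR), at 6020 to 11163 reads. Strand was not used in the counting, and the antisense gene Gm17501, which overlaps Ccn1, held 242 to 507 reads.

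Ccn2 (chromosome 10, 24471333 to 24474900, plus strand) had 105, 101 and 90.5 TPM in Ctrl and 80.2, 76.8 and 66.9 TPM in Nfkbiz KO. The groups were separate, and replicate 3 was the lowest in each. Its log2 fold change was -0.50 (SE 0.072, adjusted p = 0.00017 from edgeR). Among the other CCN genes, Ccn4 fell from 52.6 ± 5.96 to 41.0 ± 2.31 TPM (log2 fold change -0.45) and Ccn3 rose from 5.42 ± 0.396 to 7.87 ± 0.471 TPM (0.42). The call of Ccn3 (adjusted p = 0.019 from edgeR) was lost without Ctrl replicate 1 (adjusted p = 0.058), Nfkbiz KO replicate 1 (0.052) or Nfkbiz KO replicate 2 (0.076). Ccn5 and Ccn6 did not pass the test, with at most 94 reads. Ccn1 held 73.3% ± 0.538 of the summed level of the 6 CCN genes in Ctrl and 71.3% ± 0.384 in Nfkbiz KO. The sum was 598 ± 38.1 and 439 ± 25.5 TPM.

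Ankrd1, an ankyrin repeat protein found in sarcomeres and in the nucleus, showed the largest change in size among the 10 genes. It lies on chromosome 19 (36089352 to 36097506, minus strand). It had 66.5, 86.0 and 76.6 TPM in Ctrl and 34.0, 32.9 and 32.6 TPM in Nfkbiz KO. The Nfkbiz KO samples were nearly equal, and the lowest Ctrl sample, replicate 1, was far above them. The change of Ankrd1 on the log2 scale was -1.32 (SE 0.077, adjusted p = 7.8e-08 from edgeR), at 936 to 3074 reads, and from -1.40 to -1.25 when any 1 sample was left out. Its relatives Ankrd2 and Ankrd23 had at most 17 and 106 reads and did not pass the test, and of the reads of Ankrd23 only 23.5% mapped uniquely.

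Axl, a receptor tyrosine kinase, was the most abundant of the 10 genes, at 42615 to 59416 reads per sample. It lies on chromosome 7 (25456535 to 25488329, minus strand). It had 788, 829 and 688 TPM in Ctrl and 909, 899.9 and 894 TPM in Nfkbiz KO. All Nfkbiz KO samples were above all Ctrl samples, but the Ctrl samples were spread widely and replicate 3 was the lowest. Its log2 fold change was 0.14 (SE 0.059, 95% interval 0.0092 to 0.27), and the gene missed the threshold (adjusted p = 0.089 from edgeR). It passed without Ctrl replicate 2 (0.17, adjusted p = 0.047), without Ctrl replicate 3 (0.095, adjusted p = 0.044) and with DESeq2 (0.14, adjusted p = 0.029).

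The other receptors of the family differed from Axl in level. Mertk rose from 14.9 ± 2.47 to 25.6 ± 0.236 TPM (log2 fold change 0.62, 83.1% of reads unique), and Tyro3 had 17.7 ± 0.730 and 17.4 ± 1.23 TPM and did not pass. Axl held 95.9% ± 0.0673 of the summed level of the 3 receptors in Ctrl and 95.4% ± 0.108 in Nfkbiz KO. Gas6, the ligand of AXL, had 29 to 49 reads and did not pass, and Pros1, which encodes the MERTK and TYRO3 ligand protein S, fell from 19.1 ± 1.19 to 14.1 ± 0.665 TPM (log2 fold change -0.57).

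Crim1, a transmembrane protein that binds bone morphogenetic proteins, did not pass the test. It lies on chromosome 17 (78507601 to 78684021, plus strand). It had 47.0, 48.4 and 34.9 TPM in Ctrl and 44.5, 45.6 and 40.9 TPM in Nfkbiz KO. The groups overlapped, and Ctrl replicate 3 was lower than every other sample. The log2 fold change was -0.090 (SE 0.087, 95% interval -0.28 to 0.10, adjusted p = 0.46 from edgeR). It depended on Ctrl replicate 3, without which it was -0.20 (adjusted p = 0.0063), and its sign turned on the TPM scale (0.021 with limma on log2(TPM + 1)). The antisense gene Fez2 overlaps Crim1 over 7381 bases and held 1927 to 3062 reads, and reads of the overlap cannot be told apart by strand.

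Fjx1, the mammalian relative of the fly gene four-jointed, whose product acts on Fat and Dachsous cadherins upstream of Hippo signalling, rose. This gene of a single exon lies on chromosome 2 (102279711 to 102282844, minus strand). It had 5.92, 4.40 and 5.94 TPM in Ctrl and 11.5, 13.4 and 11.8 TPM in Nfkbiz KO. Every Nfkbiz KO sample was far above every Ctrl sample, and Ctrl replicate 2 was the lowest. The log2 fold change was 1.07 (SE 0.14, adjusted p = 8.2e-05 from edgeR), with 149 to 468 reads per sample, the fewest of the 10 genes. Without Ctrl replicate 2 it was 0.92, and without Nfkbiz KO replicate 2 it was 0.998, both under a fold change of 2.

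The cadherins of that branch were expressed unevenly. Fat1 was the most abundant with 44.7 ± 11.6 and 62.9 ± 3.74 TPM (log2 fold change 0.40), Fat4 rose from 1.78 ± 0.539 to 3.22 ± 0.168 TPM (0.77) and Dchs1 fell from 2.22 ± 0.355 to 1.82 ± 0.0941 TPM (-0.38). Dchs2 had at most 3 reads. The calls of Fat1 (adjusted p = 0.022) and Dchs1 (adjusted p = 0.019, both from edgeR) were less firm than that of Fat4. Without Ctrl replicate 3 the log2 fold change of Fat1 was 0.23. Without Nfkbiz KO replicate 1, Fat1 had an adjusted p of 0.075 and without replicate 2 one of 0.076, and Dchs1 was called in only 1 of the 6 analyses that left out a sample, with adjusted p up to 0.069.

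Mixed directions like those of the 8 target genes were seen in some of the wider gene lists and not in others. The 8 genes belong to a signature of 22 YAP/TAZ target genes, whose other 14 genes were all tested. Among these 14, 5 rose and 6 fell in Nfkbiz KO, and their median log2 fold change was -0.099. The 11 called were 78.6% of the 14, beside 36.6% of all genes tested. All lists were chosen with earlier results of these data known, so the shares called in them are descriptions and not tests. Not all 6 downward calls were firm, as some held in only 1 or 2 of the 6 analyses that left out a sample. All 5 upward calls held in at least 5 of them. Over all 22 genes, 7 were higher and 10 lower, with a median of -0.16 on the scale of read counts and 0.0091 with limma on log2(TPM + 1), so the sign of the median depended on the scale. The median of all genes tested was -0.015 on the scale of read counts and 0.063 with limma on log2(TPM + 1).

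The largest change of the signature was that of Nuak2, a kinase related to AMPK, which fell from 7.67 ± 0.609 to 2.30 ± 0.445 TPM (log2 fold change -1.93). Tgfb2, the gene of the growth factor TGFβ2, had 106 to 274 reads and rose from 1.71 ± 0.366 to 3.47 ± 0.179 TPM (0.93). F3, which encodes the coagulation starter tissue factor, fell from 27.7 ± 3.48 to 17.2 ± 1.69 TPM (-0.80). Ankrd1, Fjx1 and Nuak2 were the only genes of the 22 past the fold and difference cut-offs.

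Of 5 further reported targets, 4 fell, and Birc5, the gene of the apoptosis inhibitor survivin, did not pass. All 5 estimates of the log2 fold change were below 0, and their median was -0.42. The share lower was 4 of 5, beside 18.4% of all genes tested. Tgm2, a transglutaminase that crosslinks proteins, fell from 17.4 ± 1.42 to 6.29 ± 1.19 TPM (log2 fold change -1.58, 89.4% of reads unique). Edn1, the gene of endothelin-1, fell from 5.85 ± 0.642 to 3 ± 0.709 TPM (-0.98), and Areg, an EGFR ligand, fell from 265 ± 16.4 to 216 ± 4.30 TPM (-0.42).

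Upstream of YAP and TAZ, 15 genes of Hippo kinases and their activators were tested. In Nfkbiz KO 6 of them rose and 1, Rassf1, fell, and the median log2 fold change was 0.11. The share called was 46.7%, beside 36.6% of all genes tested. Over the whole table, genes spanning up to 11054 bases had a median of -0.10 and those of 58771 bases or more one of 0.054. Of the genes described singly, Ccn1, Ccn2 and Ankrd1, which fell, span 3019, 3568 and 8155 bases. Wwtr1 and Lats2, which rose, span 120265 and 68886 bases. Fjx1 rose at 3134 bases and Amotl2 fell at 16782 bases. The part of gene span in these directions and in the median of the 15 genes was not tested. The calls of Rassf1 and of Stk3, the gene of MST2, held in only 3 and 2 of the 6 analyses that left out a sample. Taok3, a kinase that acts on MST1 and MST2, rose from 9.49 ± 0.273 to 14.1 ± 0.845 TPM (log2 fold change 0.45). Wwc1, the gene of the LATS-binding scaffold KIBRA, rose from 12.9 ± 1.75 to 17.1 ± 0.826 TPM (0.33), and Lats1 is given above. Of 8 cytoplasmic proteins that bind YAP, TAZ or LATS, which include Ptpn14 of the signature, 3 were higher and 3 lower (75% called, beside 36.6%). Ajuba, a LIM protein that binds LATS kinases, fell from 95.4 ± 7.88 to 67.2 ± 3.84 TPM (log2 fold change -0.59), and Tjp1, the tight junction protein ZO-1, fell from 105 ± 17.0 to 75.9 ± 2.52 TPM (-0.56).

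SRF and its co-activators of the MRTF family share target genes with YAP and TAZ and respond to actin. Of 14 genes of this group 12 were tested, of which 1 was higher and 3 were lower, with a median log2 fold change of -0.021. The 4 called were 33.3% of the 12, a share near the 36.6% of all genes tested. Acta2, smooth muscle actin, fell from 52.5 ± 4.79 to 41.7 ± 3.01 TPM (-0.43). Cnn2 had 503 ± 5.61 and 464 ± 15.4 TPM (-0.21), and Mrtfa had 22.1 ± 1.47 and 21.1 ± 1.15 TPM (-0.21). The calls of Cnn2 (adjusted p = 0.0089) and Mrtfa (adjusted p = 0.013, both from edgeR) were lost without Nfkbiz KO replicate 3 (adjusted p = 0.065) and without replicate 1 (adjusted p = 0.085). In the 72 tested genes of these lists other than the 10 described singly, 19 were higher and 22 lower. Those called were 56.9% of the 72, beside 36.6% of all genes tested, of which 18.2% were higher and 18.4% lower.

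**Figure D5:**
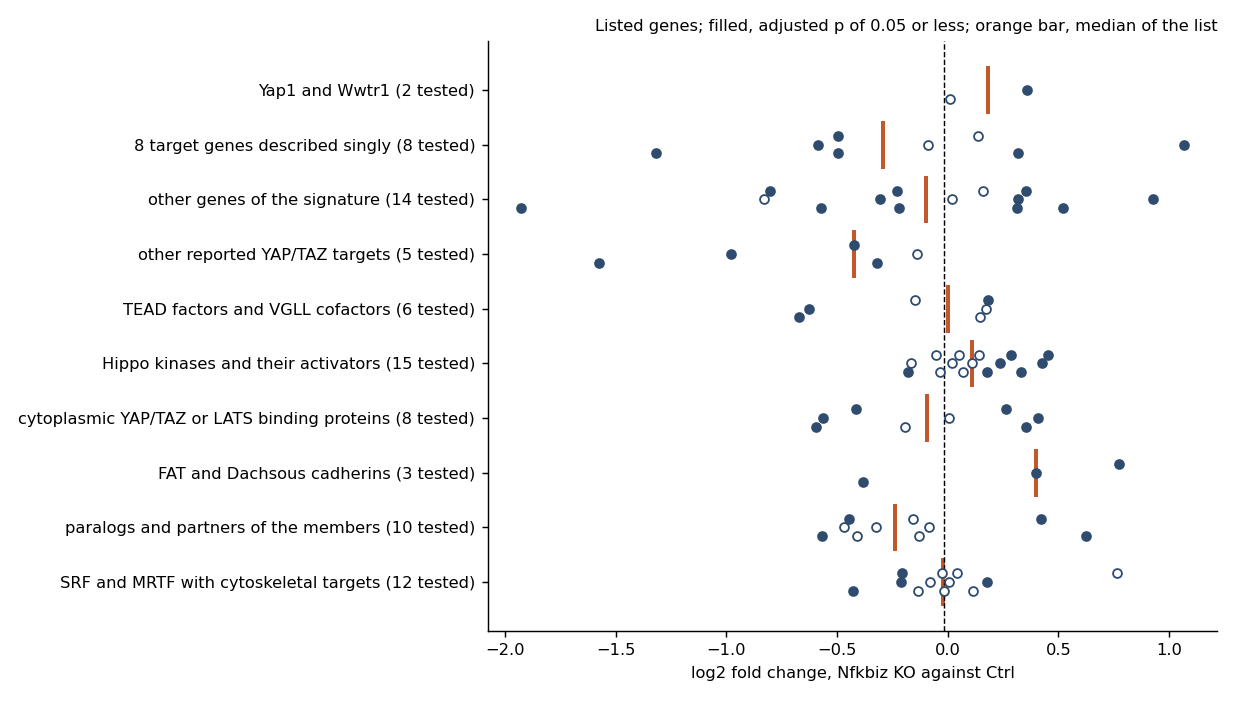
Log2 fold change between Nfkbiz KO and Ctrl of every tested gene of the lists, on the scale of read counts, with a row for each list. Filled points have an adjusted p of 0.05 or less, orange bars are list medians and the dashed line is the median of all genes tested (-0.015). Points lie on both sides of 0 for the 8 target genes and for the other genes of the signature, and the 5 points of the further reported targets are all below 0.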

How the data were processed

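RNA of 3 Ctrl and 3 Nfkbiz KO samples of D4M-3A cells was sequenced with paired ends. The authors mapped reads with CLC Genomics Workbench, without using strand, and deposited a table of genes per sample. The build is GRCm39 in the study's methods and GRCm38 per the labels, and the tables hold no coordinates. The deposited read counts are raw counts of all and of uniquely mapped reads per gene. The deposited TPM and RPKM values are normalized by the authors for length and depth, and their decimal commas were converted. In each sample 2105 to 2271 genes had reads but an RPKM of 0, and the cause was not tested.

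Counts were tested with edgeR 4.0.16 (R 4.3.3; TMM factors 0.978 to 1.011, filterByExpr minimum of 10 per sample and 15 in all, quasi-likelihood test, Benjamini-Hochberg adjustment over 14419 genes). The procedure was tested on simulated data drawn with the same dispersion for all genes and both groups. That simulation does not cover a spread that differs between groups. The fold and difference cut-offs are those of the study, whose text gives no unit for the difference, taken here as TPM. Overlap of groups used log2 CPM for counts of genes and TPM for named genes. A total of 3 counts (0.0668 to 0.0931 CPM) was taken as the limit of detection, which covers counting error only. No 2 samples of a group were duplicates (chi-square per degree of freedom at least 3.49). This value was 28.0 to 71.4 between Ctrl samples and 3.49 to 6.24 between Nfkbiz KO samples, whereas the test took the same spread for both groups. Same-numbered samples did not deviate together over all genes (correlations 0.0367, -0.0233 and 0.0256), and the main test used no pairing. With 3 samples per group these values cannot exclude that equal numbers mark a shared experiment. P-values set the difference between groups against the spread between these samples. Whether this spread covers separately made knockout cells is not known.

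The 10 genes and all lists were chosen with earlier results of these data known. The genes named are the 10, Nfkbiz, the TEAD genes, up to 3 genes of each list with the largest change among those that passed, and paralogs and partners. Others (Rassf1, Stk3, Birc5, Pdgfra and the markers at low reads) were chosen after their values were seen and are named to complete a family or list. Gene positions are from GENCODE vM39 (GRCm39), matched by symbol. The alternatives tried were the likelihood-ratio test of edgeR, DESeq2 1.42.0, scaling by RLE, other filters, limma 3.58.1 on log2(TPM + 1) and log2(TPM + 0.1), unique reads, a replicate block and each sample left out. A gene of the lists is not reported here. LOX-IMVI cells and tumors were not analysed here. Figures were drawn with matplotlib 3.10.9.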

Additional observations from a re-analysis of the deposited data

How the results depend on the processing

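Of the 10 genes, 7 to 9 changed when any 1 sample was left out, 8 with DESeq2 and 7 in the other alternatives. In the 7 changed genes neither direction nor call turned in any alternative. The number past the fold and difference cut-offs was 1 to 2 when any 1 sample was left out, since Fjx1 fell under a fold change of 2 without Ctrl replicate 2 or Nfkbiz KO replicate 2. Without the difference cut-off the 258 genes of the whole table became 854, and the 2 of the 10 genes remained 2. Of the 72 listed pathway genes tested, 41 were called, 27 with limma on log2(TPM + 0.1) and 28 on log2(TPM + 1). The 5274 genes called over the whole table became 4226 and 4331 in these 2 limma analyses, and the cause was not tested.

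The sign turned for Yap1 without Ctrl replicate 3 (-0.027, with 0.036 at the other end when another sample was left out) and for Crim1 with limma on log2(TPM + 1) (0.0206) and log2(TPM + 0.1) (0.0213), neither of which passed. Among genes at low reads that did not pass, leaving out any 1 sample gave -0.29 to 0.021 for Ccn6, -0.91 to 0.085 for Ankrd2 and -0.21 to 0.013 for Gas6. With the replicate block 7 of the 10 genes, 41 listed genes and 5087 genes of the whole table were called, of which 4945 were among the 5274 called without it. The log2 ratio of Yap1 to Wwtr1 differed by -0.37 to -0.36 with each sample left out and by -0.36 in RPKM. Over 46 named genes and 687 comparisons with an alternative, 649 kept direction and side of the threshold, 25 lost the call, 7 gained it and 6 turned sign. Both limma analyses ended the calls of Tead4, Amot, Fat1, Dchs1 and Mrtfa, DESeq2 ended that of Fat1 (adjusted p = 0.08), and Tead1 passed with the replicate block and without a filter on low counts (adjusted p = 0.05 and 0.018). Exon reads were not run, as the tables hold none. Fjx1 had the fewest reads of the 10 genes and the largest standard error, and the parts of counting error and of the spread between samples in it were not tested. No paired analysis of the Yap1 to Wwtr1 ratio was made, because it was not known whether numbers pair the samples.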
